A study of Mus musculus with 6 samples.

Results

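The genes described here are Bdh1, Oxct1, Acat1 and Aacs, which encode the enzymes that interconvert, activate and split ketone bodies or return them to biosynthesis. They are 4 of the 19057 genes with a probe on the array. Every probe annotated to one of the 4 symbols was taken, whatever its values, which gave 6 probes of 45281, of which 34885 were annotated to 1 gene. Oxct1 and Bdh1 had 2 probes each, and Acat1 and Aacs had 1 each. Expression was read in left ventricles on 6 Illumina bead arrays, to ask what loss of Kdm3a, a histone H3K9 demethylase, does to gene expression under pressure overload. Pressure overload was made by transverse aortic constriction (TAC), a partial banding of the aortic arch, and sham animals had the operation without the band. There were 1 wild-type (WT) Sham array, 2 WT TAC arrays, 1 Kdm3a knockout (KO) Sham array and 2 KO TAC arrays.

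All animals were labelled male and c57/BL6, had surgery at an age of 6 to 8 weeks, and gave their ventricles 3 weeks later. The labels and the study's text differ on the time of harvest, since the text places this expression profiling 6 weeks after surgery. The text also describes a global knockout whose background was mixed FVB/C57/Bl6J, and a separate C57/Bl6J line, and which of these lines gave the arrays is not stated beyond the strain label. A global knockout lacks Kdm3a in every cell type, not in cardiomyocytes alone. Nothing in the labels says that the replicates came from separate mice, and p-values here measure only the spread between these arrays, which may be technical.

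Ketone bodies are made in liver mitochondria from acetyl-CoA and are burned elsewhere, with the heart among their main users. In the muscle mitochondrion, beta-hydroxybutyrate dehydrogenase turns beta-hydroxybutyrate into acetoacetate. Succinyl-CoA:3-oxoacid CoA-transferase then activates acetoacetate to acetoacetyl-CoA, and the mitochondrial thiolase splits that into acetyl-CoA for the citric acid cycle. A cytosolic ligase offers another route, in which acetoacetate becomes acetoacetyl-CoA for sterol and fatty acid synthesis.

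The members pulled in opposite directions, so the bases upstream of the start sites of Oxct1 and Aacs, a member that was higher in KO TAC than in WT TAC and one that was lower there, are shown. Both are the + strand of RefSeq on GRCm38.p6, 250 bases that end just before the annotated start, at chr15:4026178-4026427 for Oxct1 and chr5:125475623-125475872 for Aacs. Capitals mark CG dinucleotides.
Oxct1: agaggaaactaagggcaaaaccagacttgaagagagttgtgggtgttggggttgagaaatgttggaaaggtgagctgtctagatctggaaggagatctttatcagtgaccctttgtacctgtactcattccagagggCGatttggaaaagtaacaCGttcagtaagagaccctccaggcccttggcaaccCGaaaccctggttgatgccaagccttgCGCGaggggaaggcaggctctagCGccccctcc
Aacs: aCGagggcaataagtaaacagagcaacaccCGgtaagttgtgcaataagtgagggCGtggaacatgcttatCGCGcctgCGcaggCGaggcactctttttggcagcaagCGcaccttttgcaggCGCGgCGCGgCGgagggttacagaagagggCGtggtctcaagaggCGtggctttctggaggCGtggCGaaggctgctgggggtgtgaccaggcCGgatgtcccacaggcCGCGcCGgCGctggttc
The Oxct1 window held 6 CG dinucleotides at a GC content of 52%, and the Aacs window held 22 at 62.4%. The median of the 32851 windows of this length in the table was 6, and 14.8% of them had as many as Aacs or more. Bdh1 has 2 annotated starts, and the windows before them, at chr16:31422047-31422296 and chr16:31428503-31428752, held 7 and 9. Short motifs were searched on both strands of these 4 windows, namely the ERR element TNAAGGTCA, the nuclear receptor motif AGGTCA that lies within it, the E-box CACGTG, the CCAAT box, the GC box GGGCGG and the sterol element TCACNCCAC. None of these letters occurred in any of the 4 windows, against 1.14%, 14%, 6.02%, 33.8%, 32.7% and 1.05% of all windows. No window is shown for Acat1. No binding or chromatin data for these windows were analysed here.

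Over the whole series, the array labels were first set against Kdm3a itself. Probe ILMN_3118169 read 292 in WT Sham, 296 and 264 in WT TAC, 129 in KO Sham, and 137 and 143 in KO TAC. It was below background on all KO arrays, and KO TAC lay below WT TAC by at least 3.53-fold (adjusted p = 0.000235, limma). Kdm3a probes ILMN_2707895 and ILMN_3043245 were lower by 1.36-fold and 1.64-fold in the same comparison, ILMN_2556191 was below background throughout, and which part of the gene was deleted is not stated. Background was the 99th percentile of probes for olfactory, vomeronasal and taste receptors, an intensity of 149 to 155 depending on the array. Between 14961 and 16015 probes per array lay above it. Both WT TAC arrays were unlike the rest, with correlations over the representing probes of 0.917 to 0.931 with the other 4 arrays, which correlated at 0.984 to 0.995 among themselves. Of 16691 probes tested, 38.5% passed at an adjusted p under 0.05 in KO TAC vs WT TAC (20.5% higher and 18.1% lower in KO TAC). The share was 27.6% in WT TAC vs WT Sham. In KO Sham vs WT Sham 0.120% passed, in KO TAC vs KO Sham 0.00% by limma (at an unadjusted p under 0.05, 250 rose and 215 fell), and in the test of whether the TAC effect differed between genotypes 11.6%.

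Oxct1 and Acat1, which take acetoacetate to acetyl-CoA in the mitochondrion, were higher in KO TAC than in WT TAC ventricles, and Aacs, which uses it in the cytosol, was lower. Oxct1 differed by 1.43-fold and 1.51-fold at its probes and Acat1 by 1.74-fold, all higher in KO TAC, and Aacs was 1.85-fold lower there. Acat1 and Aacs lie near background, and these folds follow background correction. Without it the log2 differences were 0.52 and 0.59 for Oxct1, 0.52 for Acat1 and -0.52 for Aacs. Bdh1 was 1.45-fold lower in KO TAC and did not pass. Of the 5 member probes tested, 3 were called higher and 1 lower, beside 20.5% and 18.1% of all probes. Fewer member probes were called without WT TAC replicate 2 or without KO TAC replicate 2, and so were fewer of all probes. Each of these fits leaves 1 array in a group. Without WT TAC replicate 2 the log2 differences were 0.39 and 0.45 for Oxct1, 0.64 for Acat1, -0.82 for Aacs and -0.66 for Bdh1. Without KO TAC replicate 2 they were 0.45 and 0.52, 0.98, -0.76 and -0.81. After adjustment no member probe passed by the methods' t-test, which called 2 probes on the whole array. The share called was large in both directions over the whole array, and the calls of 4 genes are not set apart from it.

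**Figure D1:**
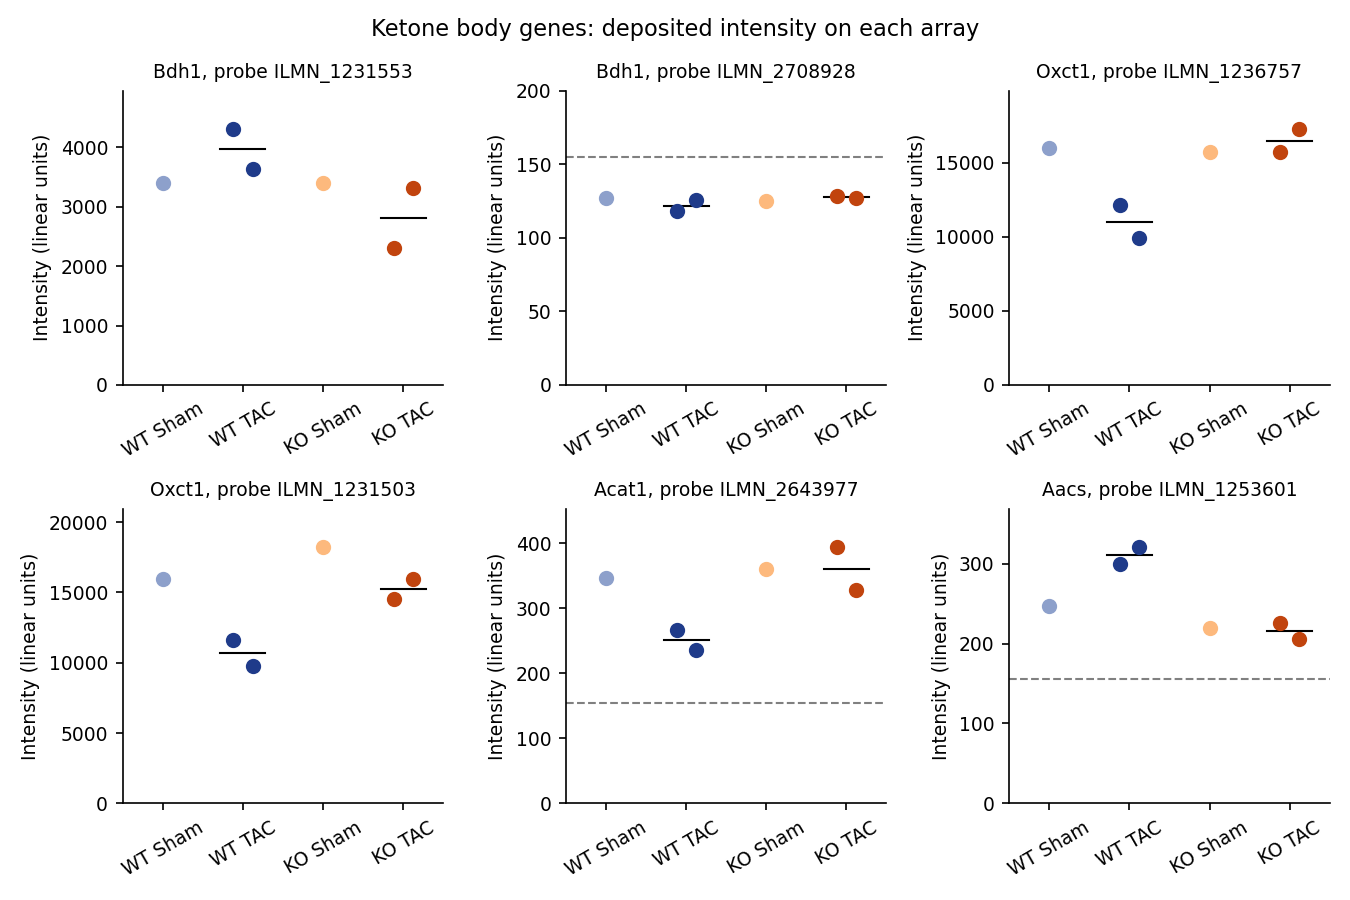
Deposited intensity (linear units, vertical axis from 0) of the 6 member probes on each array, with 1 point per array and a bar at the mean of the TAC pairs. The dashed line, drawn for dim probes only, is the highest background level (155). Both WT TAC points lie below the other 4 arrays for Oxct1 and Acat1 and above them for Aacs and Bdh1 ILMN_1231553. The WT TAC arrays were unlike the rest over the whole series, and the share of all probes separated in this way was not counted.

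Bdh1 encodes the mitochondrial beta-hydroxybutyrate dehydrogenase, the first enzyme of ketone oxidation and the last of ketone synthesis. Probe ILMN_1231553 read 3407 in WT Sham, 4312 and 3632 in WT TAC, 3399.6 in KO Sham, and 2301 and 3313 in KO TAC. The sham arrays were almost equal, both WT TAC arrays lay above all others, and both KO TAC arrays lay below all others, the second of them only a little. On the log2 scale KO TAC was lower than WT TAC by -0.54 ± 0.21 (SE), with a 95% interval of -1.04 to -0.03 (adjusted p = 0.0885, limma). The KO TAC replicates differed by 0.55 on the same scale, about as much as the groups did. Without KO TAC replicate 2 the difference was -0.81 and passed (adjusted p = 0.0129, limma), and without KO TAC replicate 1 it was -0.26. The other Bdh1 probe, ILMN_2708928, read 118 to 128 and was below background on every array, so it gives no comparison.

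Bdh1 moved less clearly with TAC within a genotype. WT TAC exceeded WT Sham by 0.22 ± 0.26 (adjusted p = 0.56, limma), and KO TAC differed from KO Sham by -0.31 ± 0.26, with an interval of -0.93 to 0.31. The first value was 0.09 without WT TAC replicate 1 and 0.35 without WT TAC replicate 2, and the second -0.04 without KO TAC replicate 1 and -0.58 without KO TAC replicate 2. The difference between the sham arrays had an interval of -0.72 to 0.71 around a value of almost 0.

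Oxct1 encodes succinyl-CoA:3-oxoacid CoA-transferase, the step that lets a tissue burn ketone bodies and that liver lacks. Probe ILMN_1236757 read 16021 in WT Sham, 12127 and 9918 in WT TAC, 15718 in KO Sham, and 15718 and 17305 in KO TAC. Probe ILMN_1231503 read 15973 in WT Sham, 11644 and 9774 in WT TAC, 18199 in KO Sham, and 14552 and 15973 in KO TAC. At both probes the WT TAC arrays were the lowest of the 6, with no overlap with any other array. Both WT TAC arrays were unlike the rest over the whole series, and the share of all probes separated in this way was not counted. Equal values on different arrays arise because the deposited intensities had been set to a common distribution.

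Set against WT TAC, KO TAC was higher by 0.59 ± 0.16 at ILMN_1236757 (adjusted p = 0.0274, limma) and by 0.52 ± 0.16 at ILMN_1231503 (adjusted p = 0.0383, limma). These calls were close to the threshold. Without WT TAC replicate 2 the differences were 0.45 and 0.39 and neither passed (adjusted p = 0.157 and 0.201, limma). Without KO TAC replicate 2 neither passed either (adjusted p = 0.0777 and 0.114, limma), and without WT TAC replicate 1 ILMN_1231503 did not (adjusted p = 0.0608, limma). With no filter on dim probes neither passed (adjusted p = 0.0656 and 0.0762, limma).

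The mean intensity of Oxct1 in WT TAC was 68.8% and 67% of WT Sham at ILMN_1236757 and ILMN_1231503, and in KO TAC 103% and 95.6% of it. In the model WT TAC was lower than WT Sham by -0.55 ± 0.20 and -0.59 ± 0.19, which did not pass (adjusted p = 0.081 and 0.0625, limma). KO TAC differed from KO Sham by 0.07 ± 0.20 and -0.26 ± 0.19, in opposite directions at these probes. Between the sham arrays the differences were -0.03 and 0.19.

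Acat1 encodes the mitochondrial acetoacetyl-CoA thiolase, which splits the product of Oxct1 into acetyl-CoA and also serves isoleucine breakdown and, in reverse, ketone synthesis. Probe ILMN_2643977 read 347 in WT Sham, 267 and 236 in WT TAC, 361 in KO Sham, and 394 and 328 in KO TAC. As at Oxct1 the WT TAC arrays were the lowest, and here the KO TAC arrays lay on either side of the shams. KO TAC exceeded WT TAC by 0.80 ± 0.19, with an interval of 0.35 to 1.24 (adjusted p = 0.0166, limma). The call was lost without WT TAC replicate 2, where the difference was 0.64 (adjusted p = 0.108, limma), and with no filter on dim probes (adjusted p = 0.064, limma). With no background correction the difference was 0.52 and passed.

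WT TAC was lower than WT Sham by -0.73 ± 0.23 at Acat1 (adjusted p = 0.0571, limma), just short of the threshold. It passed under 6 of 12 other settings. KO TAC and KO Sham differed by -0.01 ± 0.23, with an interval of -0.56 to 0.54, and the sham arrays by 0.08 ± 0.27.

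Aacs encodes acetoacetyl-CoA synthetase, the cytosolic ligase that feeds acetoacetate into sterol and fatty acid synthesis. Probe ILMN_1253601 read 247 in WT Sham, 300.0 and 320.2 in WT TAC, 219 in KO Sham, and 226 and 206 in KO TAC. The WT TAC arrays were the highest and the KO arrays the lowest, with WT Sham between them. KO TAC was lower than WT TAC by -0.89 ± 0.16, with an interval of -1.26 to -0.51 (adjusted p = 0.00576, limma). This was the smallest adjusted p among the members, and it passed under 14 of 15 other settings, the exception being the methods' t-test after adjustment (adjusted p = 0.12). With no background correction it was -0.52.

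WT TAC was higher than WT Sham in Aacs by 0.52 ± 0.19 (adjusted p = 0.0869, limma), which passed under none of 12 other settings. KO Sham was lower than WT Sham by -0.31 ± 0.22 (adjusted p = 0.766, limma). KO TAC and KO Sham differed by -0.05 ± 0.19, with an interval of -0.51 to 0.41.

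**Figure D2:**
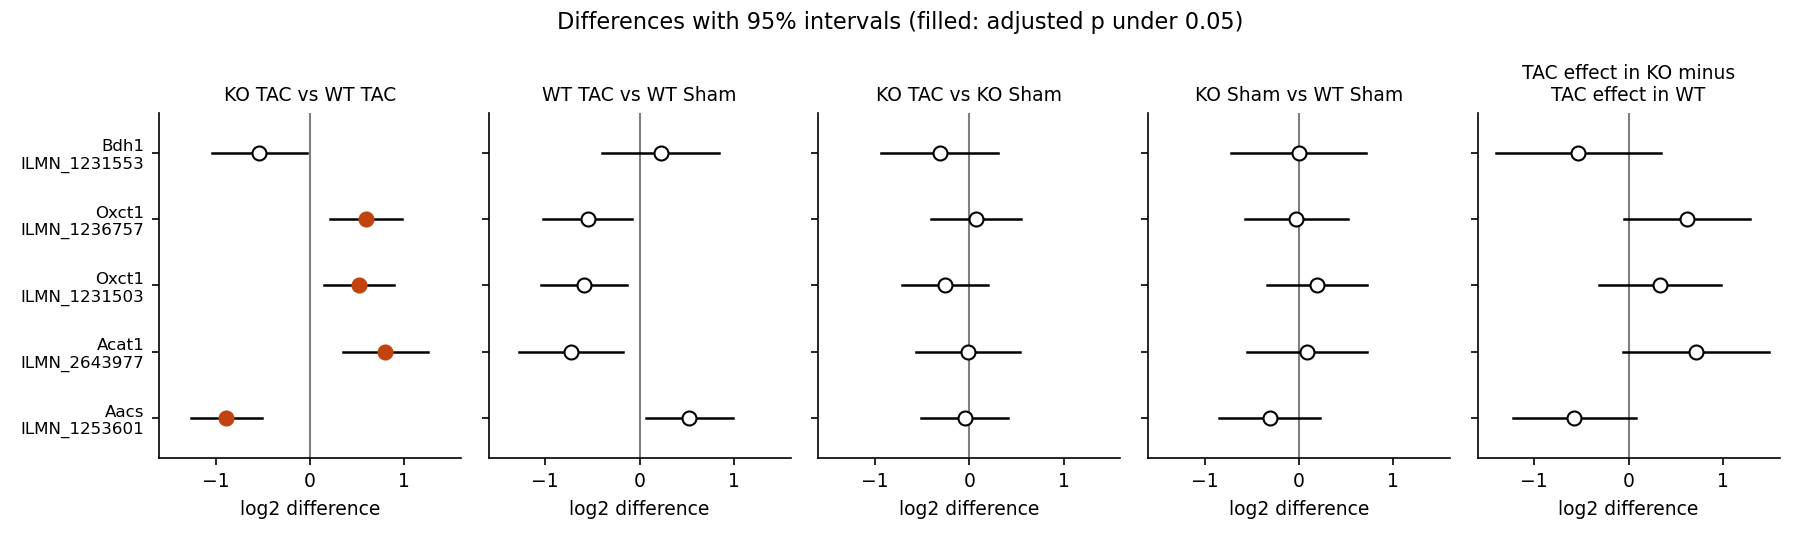
Log2 differences of the 5 member probes above background in the 5 comparisons (horizontal axis), with 95% intervals from the limma fit, filled where the adjusted p was under 0.05. In KO TAC vs WT TAC 4 probes are filled, and in the other comparisons none is.

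In the other 4 comparisons no member passed. In WT TAC vs WT Sham none of the 5 probes was called, beside 27.6% of all probes, although at an unadjusted p under 0.05 Aacs was higher and Acat1 and both Oxct1 probes were lower. At that threshold 3200 of all 16691 probes were higher and 3680 lower. Oxct1 passed there under 3 of 12 other settings at ILMN_1236757 and 6 of 11 at ILMN_1231503. In KO TAC vs KO Sham (0.00% of all probes) and in KO Sham vs WT Sham (0.120%) no member probe was called by limma or reached an unadjusted p under 0.05. The shams were single arrays, whose spread was taken from the TAC pairs.

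Whether TAC acted differently in the genotypes was tested directly. The TAC effect in KO minus that in WT was 0.71 ± 0.33 for Acat1 (adjusted p = 0.196, limma), and its interval ran from -0.06 to 1.49. For Oxct1 it was 0.62 ± 0.28 at ILMN_1236757 (adjusted p = 0.192, limma) and 0.33 ± 0.27 at ILMN_1231503 (adjusted p = 0.462, limma). For Aacs it was -0.57 ± 0.27 (adjusted p = 0.213, limma), and for Bdh1 -0.53 ± 0.37 (adjusted p = 0.377, limma), the last of which ran from -0.81 to -0.26 when 1 TAC array was left out. None of these passed under any setting tried, beside 11.6% of all probes. The comparisons of WT TAC with KO TAC and with WT Sham and this test all use the WT TAC arrays, so a member's values in them are not separate observations.

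The differences of the members were moderate for this array. In KO TAC vs WT TAC 89.8% of the tested probes had a lower value than Acat1, 83.3% and 80.5% a lower value than Oxct1 at ILMN_1236757 and ILMN_1231503, 17.1% a lower value than Bdh1 and 9.51% a lower value than Aacs. In WT TAC vs WT Sham the same shares were 12% for Acat1, 19% and 17.3% for Oxct1, 69.3% for Bdh1 and 82% for Aacs.

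**Figure D3:**
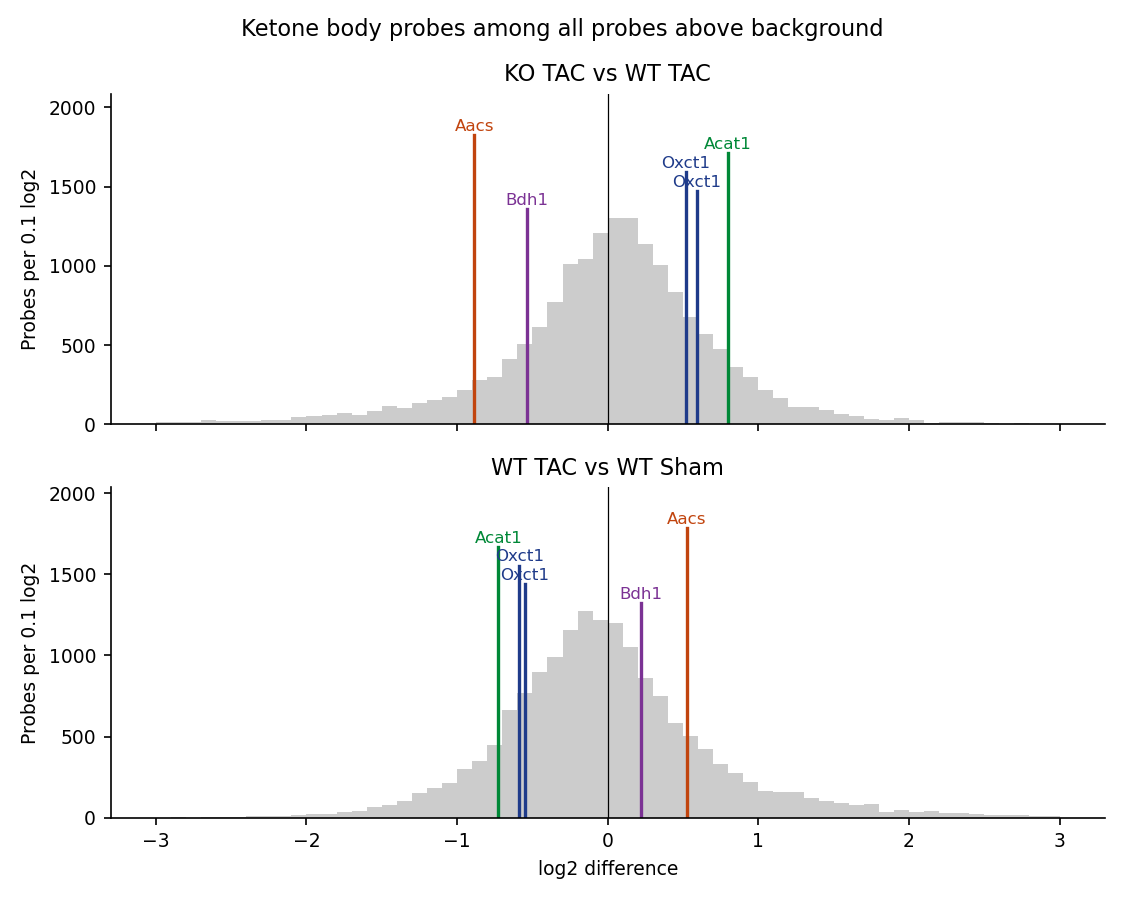
Number of tested probes per 0.1 log2 (grey, vertical axis) by log2 difference in KO TAC vs WT TAC (top) and WT TAC vs WT Sham (bottom), with a line at each member probe whose height carries no value. Differences beyond 3 in either direction fall outside the drawn range. Acat1 and Oxct1 lie right of centre at the top and left at the bottom, and Aacs the other way round.

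Across the 6 arrays the Oxct1 probes followed each other (r = 0.93, n = 6), and Acat1 followed both (r = 0.88 and 0.91). Aacs ran against Oxct1 (r = -0.90 and -0.94) and against Acat1 (r = -0.86). Bdh1 followed none of them closely, with r between -0.70 and 0.56 to the others. These values are descriptions over arrays that share the same 4 groups, and the distance of WT TAC from the rest enters each of them. Genes most like a member were taken as those with the smallest root mean square difference of centred log2 values, out of 9649 genes with a tested probe. For Oxct1 they were Ndufa9, a subunit of respiratory complex I, 0610010K14Rik and Marchf6, with differences of 0.029, 0.030 and 0.037. For Acat1 they were Phf20l1, Pfkfb2 and Espn (0.034, 0.041 and 0.042), and for Aacs Tspan9, Dnajb4 and Stambp (0.048, 0.059 and 0.060). Bdh1 had the most distant neighbours, Slc6a15, Snx18 and Dhrs3, at 0.063, 0.082 and 0.091.

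Other genes around ketone metabolism were read from a list of 37, of which 31 had a probe and 20 a probe above background. The list was chosen with earlier results of these data known. Its counts describe these genes and are no independent evidence of a difference from the array. In KO TAC vs WT TAC 12 of the 20 were higher, 1 was lower and 7 did not pass (median log2 difference 0.62), beside 20.8% higher and 19% lower of all genes. Without WT TAC replicate 2, which leaves 1 WT TAC array, fewer of the 20 passed, and so did fewer of all probes. In WT TAC vs WT Sham 2 were higher, 6 were lower and 12 did not pass (median -0.48), beside 14.6% in each direction. There too, fewer of the 20 and fewer of all probes passed without WT TAC replicate 2. No listed gene was called by limma in KO TAC vs KO Sham or between the shams. Hmgcll1, Oxct2a, Oxct2b, the monocarboxylate transporters Slc16a1 and Slc16a7, the beta-hydroxybutyrate receptor Hcar2 and the hormone gene Fgf21 were not above background on enough arrays to be tested.

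Of the other ketone enzymes only Bdh2, a cytosolic short-chain dehydrogenase, could be tested, and its direction was that of Aacs in both comparisons. It read 157 in WT Sham, 255 and 265 in WT TAC, 173 in KO Sham, and 154 and 169.9 in KO TAC. Outside WT TAC it lay near the background of 149 to 155, and its log2 differences follow background correction. It was higher in WT TAC than in WT Sham by 1.56 ± 0.22 (adjusted p = 0.00381, limma) and fell short of WT TAC in KO TAC, with a difference of -1.44 ± 0.18 (adjusted p = 0.0014, limma), with 1 of the 2 KO TAC arrays above background. Among transport genes, Emb and Bsg encode partner proteins of the monocarboxylate transporters. Emb was at least 1.93-fold higher in WT TAC than in WT Sham (adjusted p = 0.00555, limma), and Bsg, dim throughout, at least 1.18-fold higher in KO TAC than in WT TAC (adjusted p = 0.0172, limma), a call lost without WT TAC replicate 2, without KO TAC replicate 2 and with no background correction. The other Emb probe, ILMN_2547873, read 121 to 130 and was below background on every array. Slc16a3 and Slc16a6 did not pass in either comparison.

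Of the listed genes that supply or use mitochondrial acetyl-CoA, 6 of 6 tested were higher in KO TAC than in WT TAC, beside 20.8% of all genes. Of them, 4 were lower in WT TAC than in WT Sham, beside 14.6%. These genes too were listed with earlier results of these data known. Carnitine acetyltransferase, Crat, read 3514 in WT Sham, 1249 and 1096 in WT TAC, 2642 in KO Sham, and 2871 and 2495 in KO TAC. Its difference was 1.27 ± 0.16 in KO TAC vs WT TAC (adjusted p = 0.00148, limma) and -1.68 ± 0.19 in WT TAC vs WT Sham (adjusted p = 0.00204, limma). Dlat, Acss1 and citrate synthase, Cs, were higher in KO TAC than in WT TAC by 1.03, 0.86 and 0.75, and lower in WT TAC than in WT Sham by -1.04, -0.89 and -0.84. The pyruvate dehydrogenase subunits Pdha1 and Pdhb were higher in KO TAC by 0.57 and 0.68, although the other Pdhb probes, ILMN_1247561 and ILMN_3116570, differed by -0.09 and 0.47 and did not pass. Without WT TAC replicate 2 the calls of Cs and Acss1 in both comparisons, of Pdha1 and Pdhb in KO TAC vs WT TAC and of Dlat in WT TAC vs WT Sham were lost. With no filter on dim probes Cs and Acss1 did not pass in WT TAC vs WT Sham, nor Pdha1 and Pdhb in KO TAC vs WT TAC. Pdhb also lost its call without KO TAC replicate 2, and Pdha1 without either KO TAC replicate.

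Thiolases other than Acat1 included the widest change of the list. Acaa2, the mitochondrial thiolase of fatty acid oxidation, read 7935 in WT Sham, 2276 and 1765 in WT TAC, 10235 in KO Sham, and 10360.0 and 11433 in KO TAC. It was lower in WT TAC than in WT Sham by -2.04 ± 0.22 (adjusted p = 0.00149, limma) and higher in KO TAC than in WT TAC by 2.50 ± 0.18 (adjusted p = 0.0002, limma). These values are those of probe ILMN_2704822. WT TAC was also lowest at ILMN_2704823, ILMN_2704826 and ILMN_2788984. The last read 4893 in WT Sham, 1593 and 1347 in WT TAC, 3777 in KO Sham, and 3459.5 and 4121 in KO TAC. Its gap between KO TAC and WT TAC was narrower, and KO Sham lay below WT Sham there. Hadhb and Scp2 were higher in KO TAC than in WT TAC by 0.76 and 0.62, and Hadhb was lower in WT TAC than in WT Sham by -0.59 (adjusted p = 0.0497, limma), a call lost when either WT TAC replicate was left out and with no filter on dim probes. In KO TAC vs WT TAC Hadhb was lost without WT TAC replicate 2 and Scp2 without either WT TAC replicate. Acaa1a did not pass. Ffar3, a receptor at which beta-hydroxybutyrate acts, and Sirt3, a mitochondrial deacetylase, were higher in KO TAC by 0.77 and 0.59. The Ffar3 value is that of probe ILMN_1236703. The other Ffar3 probe, ILMN_2869075, read 135 to 154 and was below background on every array. Sirt3 did not pass without WT TAC replicate 1, WT TAC replicate 2 or KO TAC replicate 2. Ppara did not pass (0.64 ± 0.22, adjusted p = 0.0584, limma), but did without WT TAC replicate 1 or KO TAC replicate 2. The cytosolic genes Acly and Acss2, which make acetyl-CoA outside the mitochondrion where Aacs works, did not pass in either comparison.

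**Figure D4:**
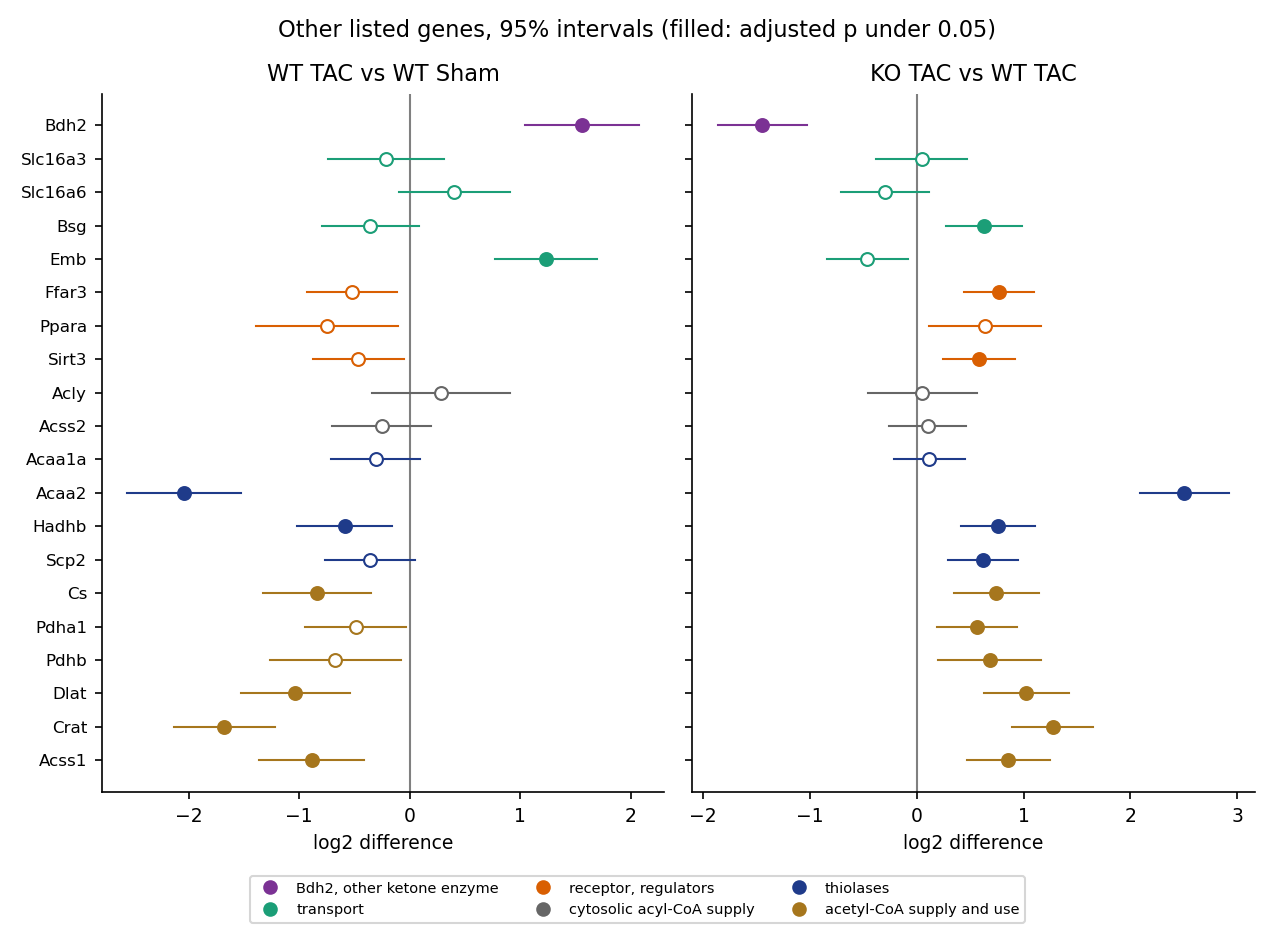
Log2 differences (horizontal axes) of the 20 tested genes of the list, with 95% intervals from the limma fit, in WT TAC vs WT Sham (left) and KO TAC vs WT TAC (right), filled where the adjusted p was under 0.05 and coloured by role. The 6 genes that supply or use mitochondrial acetyl-CoA lie left of 0 in the first panel and right of 0 in the second, and Bdh2 the reverse.

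Markers of several cell types also set the WT TAC arrays apart, and those of others did not. Summed over the 7 of 8 cardiomyocyte markers with a probe, all of them above background, the intensity was 164600 in WT Sham, 145600 and 139600 in WT TAC, 169300 in KO Sham, and 165300 and 166300 in KO TAC. Of these 7, 3 were called higher in KO TAC than in WT TAC, beside 20.8% of all genes. The 8 fibroblast markers summed to 19770 in WT Sham, 32200 and 32450 in WT TAC, 22350 in KO Sham, and 21140 and 22970 in KO TAC. Of these 8, 5 were called lower in the KO TAC arrays than in the WT TAC arrays, beside 19% of all genes. The 7 of 8 macrophage markers with a probe summed to 7930 and 8241 in WT TAC and to 3350 to 4759 elsewhere. Of these 7, 2 were called lower in KO TAC vs WT TAC, beside 19% of all genes, and 3 higher in WT TAC vs WT Sham, beside 14.6%. The 4 neutrophil markers summed to 7035 and 11730 in WT TAC and to 623 to 939.8 elsewhere. All 3 tested were called lower in KO TAC vs WT TAC, beside 19% of all genes, and higher in WT TAC vs WT Sham, beside 14.6%. Endothelial markers summed to 11740 and 11990 in WT TAC and to 8526 to 9149 elsewhere, but single markers went both ways. Of 5 tested, 1 was called higher and 2 lower in KO TAC vs WT TAC, beside 20.8% and 19% of all genes. In WT TAC vs WT Sham 1 was called higher and 1 lower, beside 14.6% in each direction. Smooth muscle and pericyte markers, at 10510 and 13120 in WT TAC, lay within the 8702 to 13830 of the other arrays. The erythroid sum did so too, at 37920 and 38370 against 34270 to 41000. Of its 3 markers, however, 2 were called higher in WT TAC vs WT Sham, beside 14.6% of all genes. In KO TAC vs WT TAC 2 were called lower, beside 19%. The 3 atrial markers summed to 707.5 and 975.4 in WT TAC and to 514.1 to 595.8 elsewhere. The 1 tested was called lower in KO TAC vs WT TAC (-1.41), beside 19% of all genes. It was not called in WT TAC vs WT Sham (0.90). The part of these cell types in the differences of Bdh1, Oxct1, Acat1 and Aacs was not tested. In bulk ventricle, fewer cells of a type and less RNA per cell cannot be told apart. Of 4 adipocyte markers the 3 with a probe, Adipoq, Lep and Plin1, were below background on all 6 arrays, and so were 3 of 4 hepatocyte markers, Alb, Apoa1 and Cyp2e1. The other hepatocyte marker, Ttr, read 162 in WT Sham, 362 and 415 in WT TAC, 168 in KO Sham, and 165 and 164 in KO TAC. Its difference was 2.28 in WT TAC vs WT Sham and -2.23 in KO TAC vs WT TAC, and Ttr passed in both (adjusted p = 0.000651 and 0.000194, limma).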

How the data were processed

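Total RNA of mouse left ventricle was read on Illumina bead arrays, which per the submitters' processing notes were summarised in GenomeStudio 2011.1. Each deposited value is a probe's intensity, unlogged. After sorting, the arrays differed nowhere by more than 0.838%, which means that the authors had quantile normalized them. Method and background subtraction were not given in the sources used here. A table of signals before normalization was not used, because none of its 6 signal columns could be tied to a sample. Groups follow the genotype and surgery named in the titles.

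Background was corrected on each array with limma's nec (normexp, robust, offset 16), using 1545 receptor probes as negative controls, then values were put on the log2 scale and quantile normalized. Of 45281 probes, 16691 were kept, those with a deposited intensity over the receptor probes' 99th percentile on 2 or more of the 6 arrays. All kept probes were fitted with 1 coefficient per group (limma 3.58.1, R 4.3.3, 2 residual and 4.82 prior degrees of freedom), with 5 contrasts and Benjamini-Hochberg adjustment over all kept probes at 0.05. Spread came from the TAC pairs alone, and the sham arrays were assumed to vary likewise. Exact permutation of 2 against 2 arrays cannot give a two-sided p under 0.333, and the p-values given come from the fitted model. Errors are standard errors of log2 differences. Where a group was below background on every array, a fold is a bound against the background level. The number of arrays limits the precision.

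The text names every probe of the 4 genes, each listed pathway gene that passed in KO TAC vs WT TAC or WT TAC vs WT Sham, and for each member the 3 most alike genes. Other genes are represented by their kept probe with the highest mean. Members and lists were chosen with earlier results of these data known. Gene names came from the array's platform annotation (34885 probes with 1 symbol, 18 with several, 10378 with none), and 34807 identifiers matched RefSeq. Listed genes with no probe in it were not analysed here. Upstream sequences came from RefSeq on GRCm38.p6. Alternatives were other background corrections and filters, no further normalization, 1 probe a gene, trended and robust moderation, a replicate block, leaving out each TAC array, the TAC arrays alone, and the methods' t-test.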

Additional observations from a re-analysis of the deposited data

Results flagged for a closer look

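The effect of TAC differed between genotypes at 3 listed genes by the limma test of that difference itself, and at none of the 4 members. Of the 20 listed genes tested, 2 were higher and 1 lower in that test, beside 4.96% higher and 7.7% lower of all genes. The list was chosen with earlier results of these data known. The TAC effect in KO minus that in WT was 2.13 ± 0.31 for Acaa2 (adjusted p = 0.0103), 1.70 ± 0.27 for Crat (adjusted p = 0.0139) and -1.83 ± 0.31 for Bdh2 (adjusted p = 0.0155). Bdh2 lay near background outside WT TAC, and its value follows background correction. With no filter on dim probes none of the 3 passed, and without WT TAC replicate 2 Crat and Bdh2 did not. No group had enough arrays to look for a single array far from the others.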

How the results depend on the processing

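Member differences in KO TAC vs WT TAC kept their direction in all 74 alternative values, 56 of them on the same side of the threshold. Settings that changed only the filter, the moderation or the test gave the main difference again. So did the replicate block and the TAC arrays alone. Direction could not turn under any of these, so only the other settings bear on it. With no filter on dim probes Oxct1 (ILMN_1236757 0.59, ILMN_1231503 0.52) and Acat1 (0.80) did not pass, with the same values. More probes then entered both the moderation of the spread and the adjustment. By the methods' t-test Oxct1 and Acat1 did not pass unadjusted (p = 0.0673, 0.0693 and 0.0806, not an exact test), and after adjustment neither did Aacs (-0.89). Bdh1 passed with trended and robust moderation (-0.54). In WT TAC vs WT Sham calls were gained with no background correction (Oxct1 -0.55 and -0.58), offset 50 (Oxct1 -0.55 and -0.59, Acat1 -0.61), probes above background on all 6 arrays (ILMN_1231503 -0.59, Acat1 -0.73) and trended and robust moderation (Oxct1 -0.55 and -0.59, Acat1 -0.73). The cause was not tested. Replicate numbers gave no pairing (correlation of deviations of the replicate 1 arrays 0.051). With the replicate block Acat1 passed in WT TAC vs WT Sham (-0.73), no other member call changed, the listed gene Ppara gained a call in KO TAC vs WT TAC, in WT TAC vs WT Sham and in the test between genotypes, Hadhb lost its call in WT TAC vs WT Sham, and 6642 probes passed in KO TAC vs WT TAC, 4902 in WT TAC vs WT Sham, 0 in KO TAC vs KO Sham and 2307 in the test between genotypes.

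Leaving out 1 TAC array at a time, KO TAC vs WT TAC ranged from 0.45 to 0.74 (ILMN_1236757), 0.39 to 0.65 (ILMN_1231503), 0.61 to 0.98 (Acat1), -1.02 to -0.76 (Aacs) and -0.81 to -0.26 (Bdh1). WT TAC vs WT Sham ranged from -0.71 to -0.46 (ILMN_1231503) and -0.88 to -0.57 (Acat1), and KO TAC vs KO Sham from -0.20 to 0.17 (Acat1) and -0.18 to 0.08 (Aacs), the sign turning without KO TAC replicate 2 (0.17 and 0.08, neither called). Probes called ranged from 3237 to 5698 in KO TAC vs WT TAC, 1981 to 5658 in WT TAC vs WT Sham, 0 to 39 in KO TAC vs KO Sham, 4 to 131 in KO Sham vs WT Sham and 515 to 2799 between genotypes, lowest without WT TAC replicate 2 in the first, second and last.

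With no filter 45281 probes were tested, of which 2798 passed in WT TAC vs WT Sham, 0 between the shams and 385 between genotypes. With 1 probe a gene 9649 were tested. Of these, 6 passed between the shams, 2998 in WT TAC against WT Sham and 3957 in KO TAC against WT TAC. The main fit tested 16691, so a lower count under another filter need not be a lower share of the probes tested. By the methods' t-test after adjustment 2 of 16691 passed in KO TAC vs WT TAC. In KO Sham vs WT Sham 10 passed with no background correction, 7 of the 13270 above background on all arrays and 39 with trended and robust moderation. Acat1 and Aacs lie near background, and with no background correction their differences in KO TAC vs WT TAC were 0.52 and -0.52.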
